A study of Homo sapiens with 16 samples.

Results

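The 4 HCC70 arrays with scrambled shRNA form 2 sets of 2 in the sample titles, set a (replicates 1a and 2a) and set b (replicates 1b and 2b), and they are compared here with each other. They were chosen by their titles and make up 4 of the 16 arrays of a series on EZH2, a Polycomb enzyme, in basal-like breast cancer cells. HCC70 is an established human breast cancer line of the basal-like type. The other groups, of 2 arrays each, are HCC70 with the empty vector plKO Puro, with shEZH2, with shEED and with fip EZH2 (EZH2 cDNA), and the line MDA-MB-468 with scrambled shRNA or shEZH2. A scrambled shRNA is a hairpin meant to match no transcript, and the empty vector carries none, so both are controls without a targeted gene.

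Both sets carry the same description: cells of 1 line stably infected in 6 µg/ml polybrene, put under 1 µg/ml puromycin 48 hours later and seeded at equal confluence 24 hours before RNA extraction. The empty vector arrays share this protocol. The design gives each of the 4 treatments a control of its own, but the labels do not say which set belongs to which knockdown, nor what separates set a from set b in date, passage or infection, so such causes cannot be told apart here. A stably infected, drug-selected population is neither an uninfected line nor 1 clone. Nothing says that the 2 arrays of a set came from separate cultures. The p-values rest on the spread between arrays of a group, pooled over the 8 groups of the series. That spread may be technical.

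Cultures of 1 line can differ in how strongly signal-driven programmes run. Type I interferon induces antiviral genes through factors that bind an interferon response element, NF-kB drives cytokine genes, and growth factor signalling through MAP kinase induces its own inhibitors and the immediate early genes. Cell density and attachment feed into YAP and TEAD, which switch on genes of adhesion and growth, and the sterol level of a cell sets the cholesterol synthesis genes through SREBF2.

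Total RNA was measured on Affymetrix Human Gene 1.0 ST arrays, and the deposited values are log2 signals made by RMA (a method that corrects background, equalises arrays and summarises probes), 1 per transcript cluster. Of 33297 clusters, 16175 had at least 2 of 16 arrays at log2 6 or above and were tested with limma, and a cluster or gene is "called" at an adjusted p under 0.05. Signal below log2 6, the floor, was not shown to exceed background, so a difference that reaches below it may be understated. Array medians ran from 5.37 to 5.53. The epithelial markers EPCAM, CDH1, KRT5, KRT8, KRT14, KRT18 and EGFR were above the floor on all 6 HCC70 control arrays. Of 20 markers of other cell types measured, 15 were below it on all 6, with fibroblast DCN at 3.28 to 3.46 and leukocyte PTPRC at 3.29 to 3.44. Fibroblast COL1A1 (6.93 to 7.27), leukocyte TYROBP (6.68 to 6.94) and CD68 were above it on all 6, and ACTA2 and LST1 reached it on 3. The summed linear signal of the 20 markers was 1139 to 1322 on empty vector, 1458 to 1526 on set a and 1137 to 1179 on set b arrays. The largest part of that sum was CD68, a lysosomal protein gene known as a macrophage marker, which read 8.95 and 8.75 with the empty vector, 9.51 and 9.55 in set a and 8.77 and 8.85 in set b and was the 1 list member called; its part in the results was not tested.

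The 2 scrambled sets differed widely. Set a differed from set b in 3677 of 16175 clusters (22.7%), of which 1198 were higher and 2479 lower in set a, and 50 were higher and 231 lower by 2-fold or more. The median difference of a called cluster was 0.47 in size on the log2 scale. Between the arrays of a pair the median absolute difference was 0.084 in set a and 0.062 in set b, against 0.194 between the means of the sets. Replicates correlated at r = 0.9951 in set a and 0.9969 in set b over tested clusters, and arrays of set a with arrays of set b at 0.977 to 0.9795. With MDA-MB-468 arrays, set a correlated at 0.8618 to 0.8799 and set b at 0.8662 to 0.8797, so the sets lay closer to each other than to the other line.

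The balance of directions depended on scaling. Higher calls were 32.6% of the total as deposited and 42.6% (1600 of 3756) after quantile normalization once more. They were 20.5% (685 of 3348) with all arrays shifted to a common median (centred), which moved the median difference of all clusters to -0.074. With the 4 scrambled arrays alone 6269 clusters were called, 41.1% of them higher. Leaving out set a replicate 1 gave 2040 calls, leaving out set a replicate 2 gave 1752, leaving out set b replicate 1 gave 1604 and leaving out set b replicate 2 gave 1755.

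**Figure D1:**
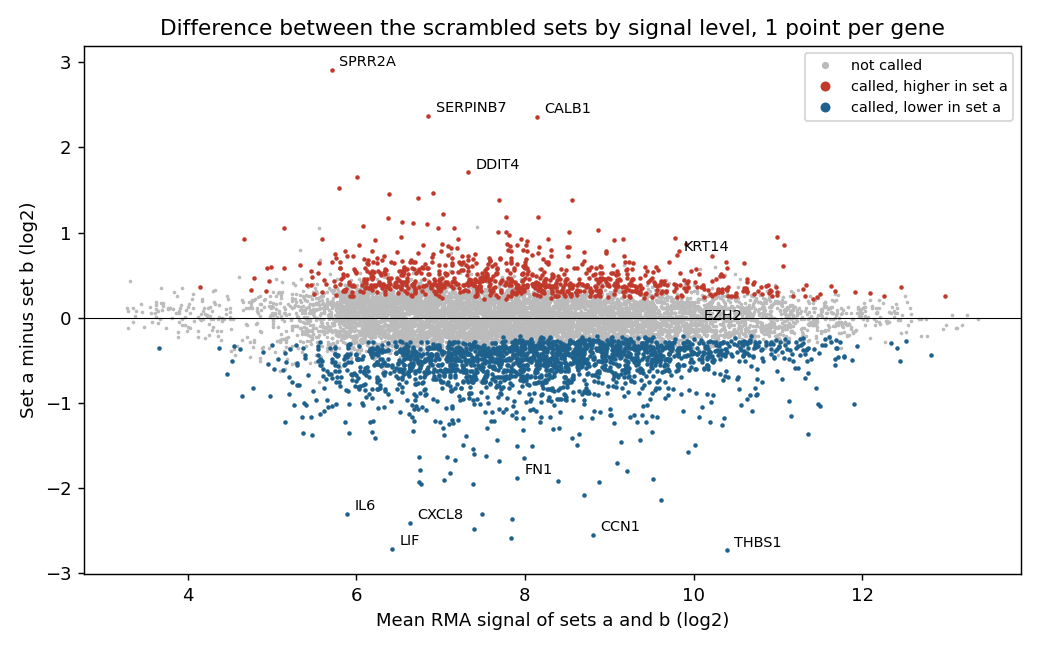
Difference between the means of set a and set b (log2, vertical axis) against their mean RMA signal (log2, horizontal axis), 1 point for each of 11145 genes; red points were called higher and blue points called lower in set a. SPRR2A at 2.91 and THBS1 at -2.73 mark the ends, and EZH2 lies at -0.07.

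The empty vector arrays lay near set b. The empty vector differed from set a in 4022 clusters (24.9%) and from set b in 307 (1.9%). These comparisons share arrays with each other and with set a against set b, so they are given side by side and not as independent results. The empty vector pair correlated with set a at 0.9739 to 0.9778 and with set b at 0.9881 to 0.9911, and its own arrays correlated at 0.9877, with a median absolute difference of 0.14 between them, the widest of the 3 control pairs. The count against set a was 2292 without set a replicate 1 and 2195 without set a replicate 2. Against set b it was 46 without set b replicate 1, 44 without set b replicate 2 and 83 without empty vector replicate 1.

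For each called cluster the empty vector mean was placed on the line from the set b mean to the set a mean. Of the 281 clusters called at 2-fold or more, it lay on the set b side in 254 (90.4%), 78 of them beyond set b. It lay nearer set a in 23 and beyond set a in 4. These clusters come from the same 6 arrays and are not independent, so no interval is given for the share. The share was 83.0% without empty vector replicate 2 and 83.2% over all 3677 calls. In fip EZH2 cells 256 of the 281 lay on the set b side and in shEED cells 231, but in shEZH2 cells 61, with 220 on the set a side. The shEZH2 arrays thus lay with set a and the 3 other HCC70 groups with set b for most of these clusters. The running codes in the sample descriptions follow the same split: set a stands next to shEZH2, and set b together with shEED, the empty vector and fip EZH2, with the MDA-MB-468 arrays between them. The labels do not say what the codes mark, and no date or batch is given, so their part in this split was not tested. Some genes went against the split. MX1, IFIT1 and XAF1 had shEZH2 means of 10.32, 10.6 and 8.14, above set b (10.05, 9.86 and 7.99). Their shEED means of 9.3, 8.89 and 7.22 lay nearer set a (8.83, 8.72 and 6.6). FN1 (9.02) and VIM (9.09) in shEZH2 also lay near set b (8.85 and 9.26).

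**Figure D2:**
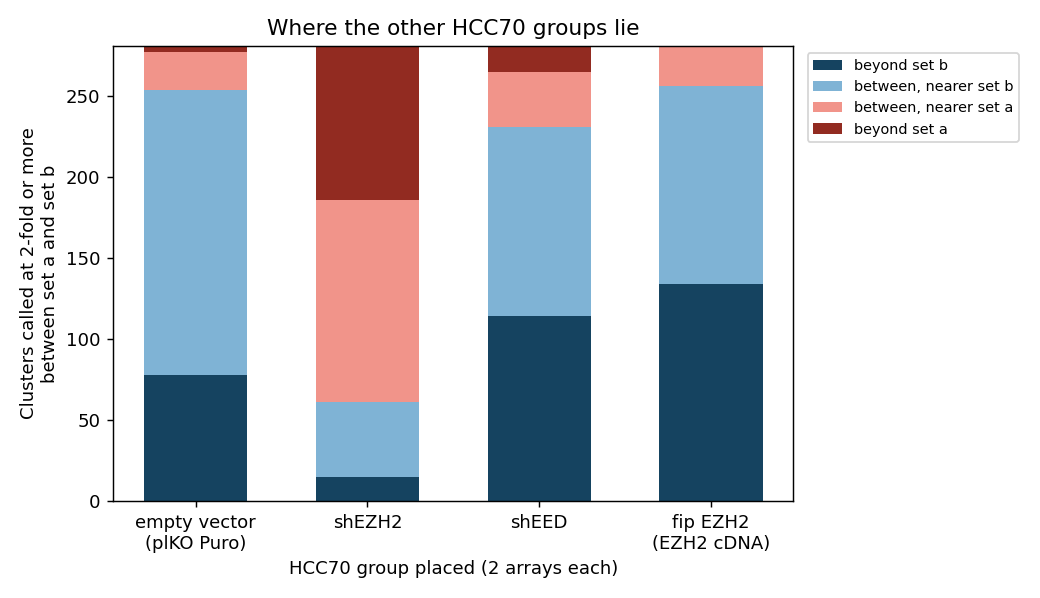
Number of clusters, of the 281 called at 2-fold or more between set a and set b, in which each other HCC70 group (mean of 2 arrays) lay beyond set b, nearer set b, nearer set a or beyond set a. The empty vector, shEED and fip EZH2 columns are mostly on the set b side (254, 231 and 256), and the shEZH2 column on the set a side (220).

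Taking the brightest cluster of a gene, 813 of 11145 genes (7.29%) were higher and 1965 (17.6%) lower in set a than in set b, with a median difference of -0.03. The empty vector was higher than set a in 15.2% of genes and lower in 12.8%, and higher than set b in 0.619% and lower in 1.66%. Against that background, 7 of the 34 gene lists examined had no higher member and between 64.3% and 77.8% of members lower in set a. These were the MAP kinase feedback, acute phase, complement, NF-kB, YAP and TEAD, interferon and cholesterol lists, and by limma at an unadjusted p under 0.05 they held 1 higher member in all. In bulk RNA, fewer cells that express a gene and less RNA of it per cell cannot be told apart. The lists and the comparisons were chosen with earlier results in view, so these counts describe the arrays and carry no test of their own. Leaving out 1 scrambled array leaves 1 array in its set, and calls over all clusters then fell as well. A smaller list count in such a fit therefore need not be particular to the list.

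**Figure D3:**
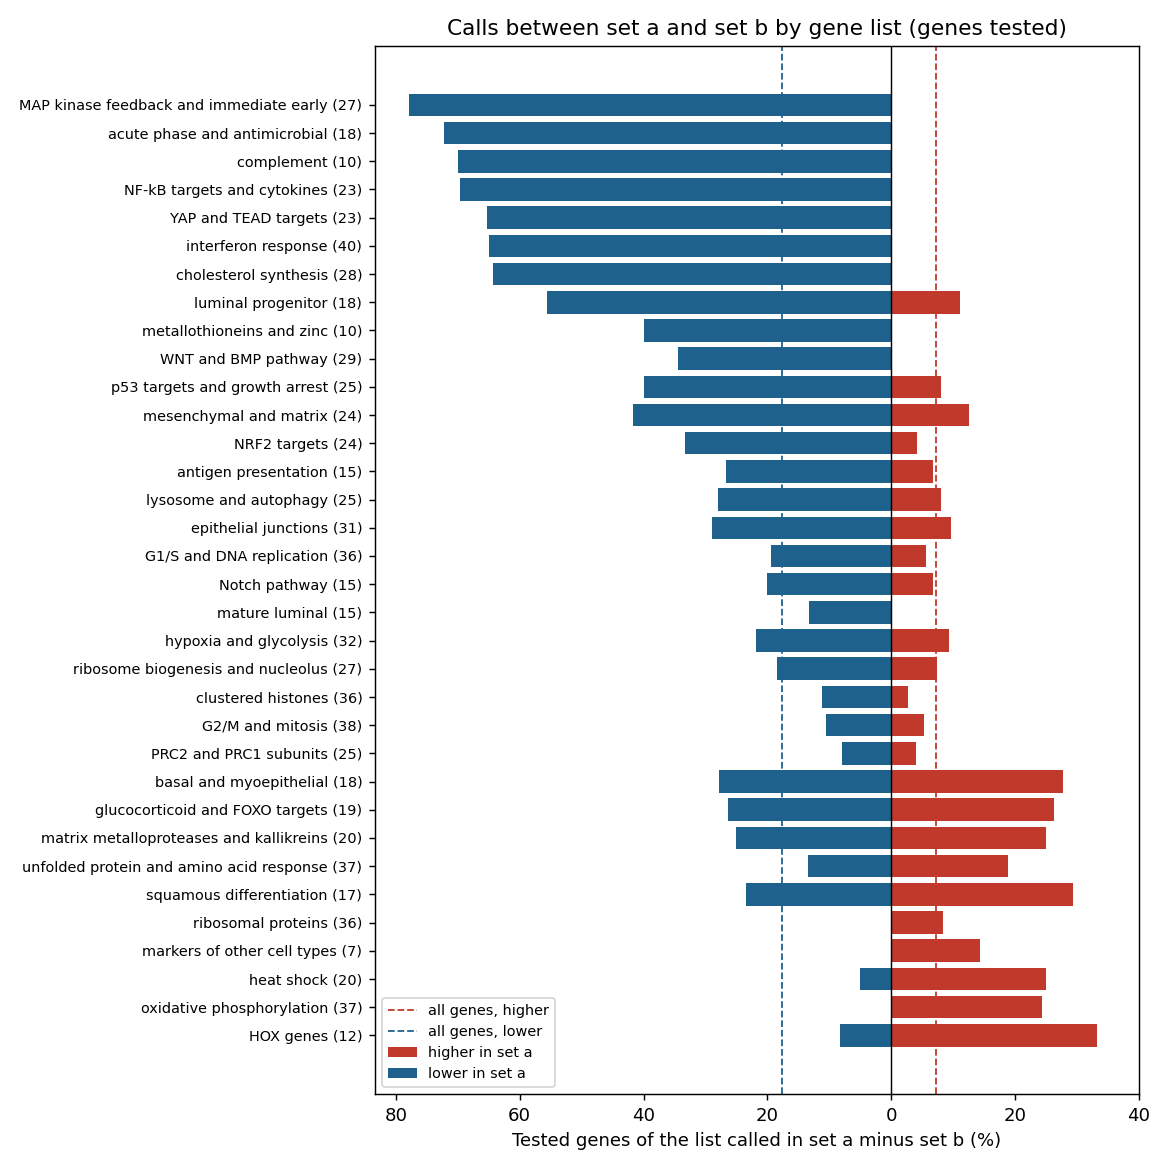
Share of the tested genes of each list (number in brackets) called higher (red, right) or lower (blue, left) in set a than in set b, in percent; dashed lines mark the shares over all genes, 7.29% and 17.6%. MAP kinase feedback, at 77.8% lower, is at the top and HOX genes, at 33.3% higher, at the bottom.

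Interferon response genes, which restrict viruses, were lower in set a. Of 40 tested, 26 (65.0%, against 17.6% of all genes) were lower and 0 higher, with a list median of -0.51. The mean signal over the 40 genes was 8.95 and 8.98 on the empty vector arrays, 8.40 and 8.37 on set a and 8.91 and 8.91 on set b. Both set a arrays lay below the other 4. Of these genes 27 were higher in the empty vector than in set a, where 15.2% of all genes were. Against set b 1 was higher, where 0.619% of all genes were, and 0 were lower.

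MX1, a GTPase that blocks influenza and other viruses, read 10.05 and 10.05 on the empty vector arrays, 8.86 and 8.80 on set a and 10.06 and 10.04 on set b. Set a was 2.32-fold below set b (-1.22 ± 0.10, standard error; adjusted p = 9.95e-06). IFIT1, which binds viral RNA, read 10.06 and 10.06 with the empty vector, 8.78 and 8.66 in set a and 9.84 and 9.88 in set b (-1.14 ± 0.14, adjusted p = 0.000171). XAF1, an interferon-induced gene linked to cell death, was at -1.39 and IFIT5 at -1.18, and for all 4 the set a arrays lay below the other 4 control arrays without overlap. The 14 members with no call ran from IFITM1 at -0.31 to OASL at 0.18, and most lay below 0. The secreted ubiquitin-like ISG15 was at 0.02.

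The promoters of the 2 called interferon genes with the largest difference that hold the interferon response element core are shown because interferon-activated factors are known to bind that element. The core searched was GAAANNGAAA on either strand, in 250 bases before to 50 after the start, and capitals mark it, which stands reversed and complemented in IFIT5. The sequences are from RefSeq on GRCh38.p14, both on the plus strand. The MX1 stretch is chr21:41420559-41420588, with the core starting 11 bases past the first transcribed base, and the IFIT5 stretch is chr10:89414478-89414577, with its first core 45 bases upstream.
MX1: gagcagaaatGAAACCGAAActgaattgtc
IFIT5: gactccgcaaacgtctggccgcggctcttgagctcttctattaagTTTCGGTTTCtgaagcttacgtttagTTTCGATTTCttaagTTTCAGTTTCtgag
The core was present in 13 of 21 called and 8 of 11 uncalled genes of the list with a promoter in the table, and in 3.65% of all 27305 promoters. XAF1, with the largest difference of the list, held no match in this window. A match is a description of letters, not a bound site.

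Cytokine and NF-kB target genes were lower in set a. Of 23 tested, 16 (69.6%, against 17.6% of all genes) were lower and 0 higher, with a median of -0.82. Against set a the empty vector was higher in 14, where it was higher in 15.2% of all genes. Against set b it was lower in 3, where it was lower in 1.66% of all genes. IL6, an inflammatory cytokine, read 6.51 and 6.76 with the empty vector, 4.75 and 4.72 in set a and 7.14 and 6.93 in set b. Set a was below the floor, and its difference from set b was -2.30 ± 0.12 (4.92-fold lower, adjusted p = 5.52e-07).

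LIF, a cytokine of the same family, read 7.51 and 7.66 with the empty vector, 5.19 and 4.95 in set a and 7.85 and 7.71 in set b (-2.71 ± 0.14, adjusted p = 5.29e-07). CXCL8, which attracts neutrophils, read 7.45 and 7.36 with the empty vector, 5.14 and 5.73 in set a and 7.97 and 7.72 in set b (-2.41 ± 0.18, adjusted p = 4.98e-06). CXCL1, another neutrophil chemokine, read 9.36 and 9.39, 7.60 and 7.71, and 9.71 and 9.77 in the same order (-2.08 ± 0.13, adjusted p = 1.71e-06). In all 4 genes both set a arrays were the lowest and the empty vector arrays lay just below set b, from which none of the 4 passed the test. CCL2, a monocyte chemokine, stood apart, with 8.46 and 8.49 in the empty vector, 7.81 and 8.03 in set a and 9.85 and 9.84 in set b. Its empty vector level was nearer set a, and differed from both (0.56, adjusted p = 0.0149 against set a; -1.37, adjusted p = 0.000671 against set b).

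**Figure D4:**
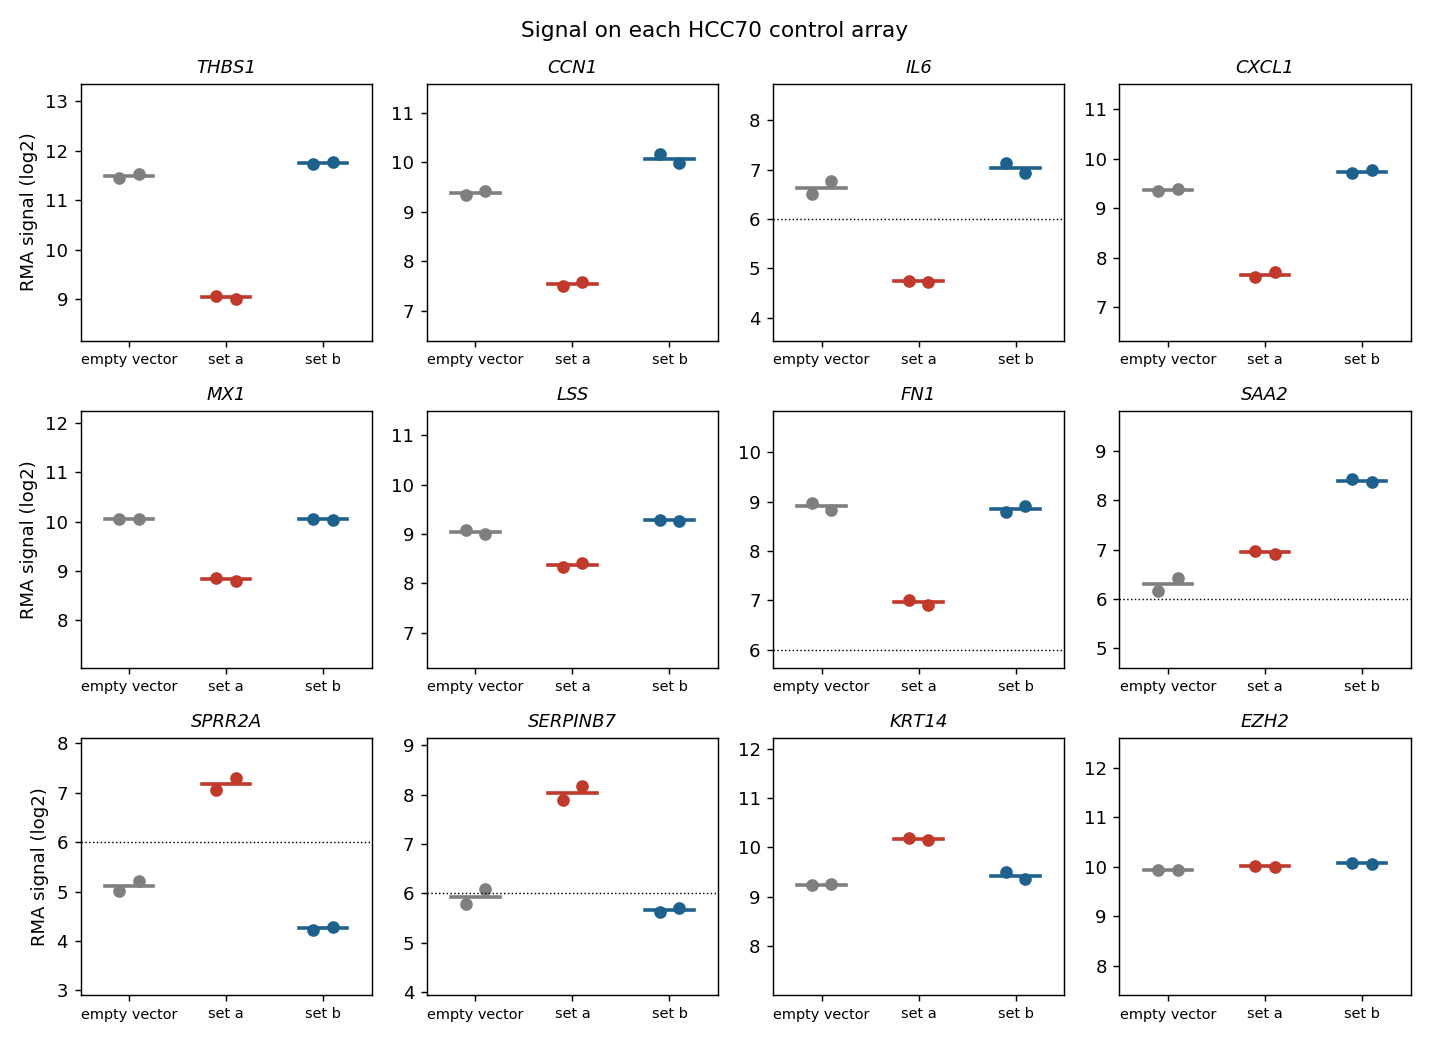
RMA signal (log2) of 12 genes on each of the 6 HCC70 control arrays, with points for arrays and bars for group means; each panel spans the same log2 range, and the dotted line is the floor at log2 6. For THBS1, CCN1, IL6, CXCL1, MX1, LSS and FN1 the set a arrays are lowest, for SPRR2A, SERPINB7 and KRT14 they are highest, for SAA2 they lie between the empty vector and set b, and EZH2 is level.

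Acute phase and antimicrobial genes, which encode secreted proteins of the mucosal and liver defence, were lower in set a by 13 of 18 (72.2%, against 17.6% of all genes) with 0 higher and a median of -0.84. The empty vector lay less with set b here: it was on the set b side in 5 of the 13 called genes, against 2334 of the 2778 called in all, and 7 of the 18 were lower in the empty vector than in set b, with 0 higher. Of all genes, 1.66% were lower and 0.619% higher in the empty vector than in set b. The mean signal of the list was 8.31 and 8.37 on the empty vector arrays, 8.15 and 8.09 on set a and 8.88 and 8.93 on set b.

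LTF, the iron-binding lactotransferrin, read 8.25 and 8.08 with the empty vector, 6.42 and 6.65 in set a and 9.03 and 9.22 in set b, so the empty vector lay between the sets, different from set a (1.63, adjusted p = 0.000467) but not called against set b (-0.96, adjusted p = 0.0578). Set a was 6.02-fold below set b (-2.59 ± 0.23, adjusted p = 1.83e-05). CHI3L1, a chitinase-like secreted protein, also lay between them, at 6.97 and 7.07 with the empty vector, 6.21 and 5.95 in set a and 7.99 and 8.0 in set b. SAA2, an acute phase apolipoprotein, read 6.17 and 6.42, 6.97 and 6.92, and 8.42 and 8.36 in the same order. Here the empty vector was below both sets (-0.65, adjusted p = 0.00207 against set a; -2.10, adjusted p = 5.72e-06 against set b). SAA2 is 1 of 2 clusters with that symbol and is close in sequence to SAA1, so the genes may share signal. The elastase inhibitor PI3 was likewise below both sets, at 9.14 and 9.04 with the empty vector, 9.77 and 9.64 in set a and 10.71 and 10.69 in set b.

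Complement genes had 7 of 10 lower and 0 higher in set a (70.0%, against 17.6%). CLU, an extracellular chaperone that inhibits complement, read 8.95 and 8.90 with the empty vector, 7.26 and 7.05 in set a and 8.63 and 8.70 in set b (-1.51 ± 0.11, adjusted p = 4.54e-06). The central component C3 read 10.47 and 10.39, 9.80 and 9.75, and 10.93 and 10.97 in the same order (-1.18 ± 0.13, adjusted p = 8.01e-05). Set a was lowest for both, and the empty vector was above set b for CLU (0.26, adjusted p = 0.289) and below it for C3 (-0.52, adjusted p = 0.0674), neither past the test. CFB (-1.23) and CD55 (-0.88) were also lower in set a.

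YAP and TEAD target genes were lower in set a by 15 of 23, with 0 higher (65.2%, against 17.6%) and a median of -0.49. CCN1, a matricellular protein gene, read 9.33 and 9.42 with the empty vector, 7.49 and 7.57 in set a and 10.17 and 9.98 in set b. It was 5.85-fold lower in set a (-2.55 ± 0.12, adjusted p = 1.93e-07), and the empty vector was itself below set b (-0.70, adjusted p = 0.0136). Its relative CCN2 read 8.15 and 7.95, 7.18 and 7.14, and 8.88 and 8.74 in that order (-1.65 ± 0.09), again with the empty vector between the sets and below set b (-0.76, adjusted p = 0.00172). TGFB2, a growth factor of the TGF-beta family, read 10.39 and 10.42, 8.63 and 8.46, and 10.68 and 10.69 (-2.14 ± 0.08, adjusted p = 1.06e-07). The coagulation initiator F3 was at -1.46. For CCN1, CCN2 and TGFB2 the 3 pairs did not overlap and ran set a, empty vector, set b from low to high.

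MAP kinase feedback and immediate early genes had the highest share of lower members of any list, 21 of 27 (77.8%, against 17.6%), with 0 higher and a median of -0.66. The empty vector was higher than set a in 19 and lower in 1, against 15.2% higher and 12.8% lower of all genes. The transcription factor JUN read 9.55 and 9.57 with the empty vector, 8.17 and 8.24 in set a and 9.41 and 9.37 in set b (-1.18 ± 0.09, adjusted p = 4.98e-06). The receptor tyrosine kinase EPHA2 read 9.83 and 9.75, 8.78 and 8.85, and 9.97 and 9.95 in the same order (-1.14 ± 0.07, adjusted p = 1.56e-06). The ERK phosphatase DUSP6 was at -1.22 ± 0.14 with a set a mean below the floor, and PHLDA1 at -1.14. In JUN the empty vector was the highest pair, and in EPHA2 it lay just under set b. The immediate early transcription factors FOS (-0.07) and EGR1 (-0.16) were not called.

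**Figure D5:**
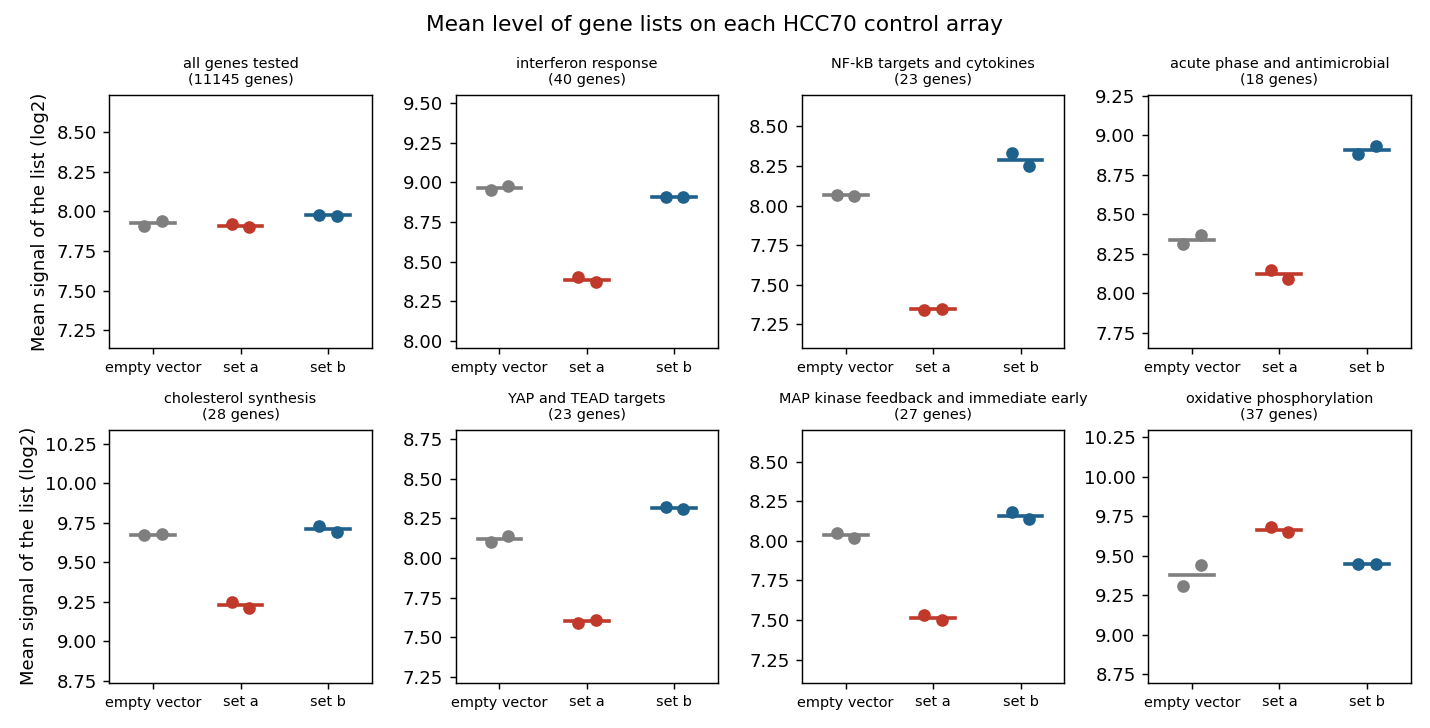
Mean RMA signal (log2) over the tested genes of 7 lists and over all 11145 genes tested on each HCC70 control array, with points for arrays and bars for group means; each panel spans the same log2 range. Set a is lowest in all lists shown except oxidative phosphorylation, where it is highest, and the mean over all genes is 7.90 to 7.98 on the 6 arrays.

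Matrix and mesenchymal genes had 10 of 24 members lower in set a (41.7%, against 17.6%) and 3 higher. THBS1, a matrix glycoprotein, read 11.45 and 11.53 with the empty vector, 9.07 and 9.0 in set a and 11.74 and 11.78 in set b (-2.73 ± 0.09, 6.62-fold, adjusted p = 2.22e-08). The fibronectin gene FN1 read 8.97 and 8.83, 7.01 and 6.91, and 8.78 and 8.91 in the same order (-1.88 ± 0.15, adjusted p = 9.52e-06). The intermediate filament gene VIM read 9.14 and 9.35, 7.83 and 7.87, and 9.26 and 9.26 (-1.41 ± 0.09, adjusted p = 2.9e-06). In FN1 and VIM the empty vector and set b arrays overlapped and set a was lower than both. Leaving out set a replicate 2 or set b replicate 1 brought the lower count to 6, and the higher count was 0 when any 1 of the 4 scrambled arrays was left out.

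In the lineage panel the sets differed for some markers and not for others. The basal keratin KRT14 read 9.24 and 9.26 with the empty vector, 10.19 and 10.15 in set a and 9.50 and 9.36 in set b, and was higher in set a (0.74 ± 0.09, 1.67-fold, adjusted p = 0.000146). KRT16, a keratin of activated epidermis, was higher too (0.86 ± 0.08, adjusted p = 3.45e-05). The basal and myoepithelial list was split, with 5 higher and 5 lower. Its lower members included VIM (-1.41), MME (-1.11) and CALD1 (-1.01). KRT5 was at 0.26 (adjusted p = 0.0265), which no longer passed when any 1 of the 4 scrambled arrays was left out (0.247 to 0.279). KIT, the receptor of luminal progenitors, read 7.64 and 7.58 with the empty vector, 6.26 and 6.37 in set a and 7.04 and 7.16 in set b. Set a was lower than set b (-0.78 ± 0.13, adjusted p = 0.00142), and the empty vector was the highest pair (0.51 above set b, adjusted p = 0.0748).

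Luminal progenitor markers in all had 10 of 18 lower (55.6%, against 17.6%) and 2 higher (11.1%, against 7.29%) in set a. Both counts fell when any 1 of the 4 scrambled arrays was left out. ALDH1A3, an aldehyde dehydrogenase of progenitor cells, read 11.04 and 11.05 with the empty vector, 10.13 and 10.19 in set a and 11.08 and 11.14 in set b (-0.96 ± 0.07, adjusted p = 5.66e-06; 1 of 2 clusters with its symbol). PROM1, a surface marker of stem and progenitor cells, was at -0.89, with the empty vector near set a, and the keratin KRT23 was at -1.23. Mature luminal markers had 2 of 15 lower (13.3%, against 17.6%) and 0 higher, and GATA3 (0.17, adjusted p = 0.427), KRT8 (0.05, 0.72) and KRT18 (-0.07, 0.614; 1 of 2 clusters) were not called. EGFR at -0.24 (adjusted p = 0.153) and CDKN2A at 0.05 (0.681) were not called either. Basal and myoepithelial markers were split, with 5 of 18 higher (27.8%, against 7.29%) and 5 lower (27.8%, against 17.6%), of which 3 were higher without set a replicate 1 and 2 without any other scrambled array.

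EZH2 read 9.94 and 9.94 with the empty vector, 10.01 and 10 in set a and 10.08 and 10.06 in set b, and did not pass the test between the sets (-0.07 ± 0.07, adjusted p = 0.539). EED, its partner in Polycomb repressive complex 2, was higher in set a (0.38 ± 0.11, adjusted p = 0.0219), at 8.22 and 8.44, 8.77 and 8.67, and 8.35 and 8.31 in the same order. The EED call ended when any 1 of the 4 scrambled arrays was left out (0.333 to 0.436) and when arrays were centred on their medians (0.323). Of 25 Polycomb subunit genes, 1 was higher, EED itself, and 2 lower in set a, EZH1 (-0.52), the other catalytic subunit, and PCGF3 (-0.39), whose call also ended when any 1 of the 4 scrambled arrays was left out. That is 4% and 8%, against 7.29% and 17.6% of all genes.

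Cholesterol and fatty acid synthesis genes were lower in set a by 18 of 28 (64.3%, against 17.6%) with 0 higher and a median of -0.44. In the empty vector 15 were higher than in set a, where 15.2% of all genes were. Against set b 0 were called (2 lower at an unadjusted p under 0.05). The mean over the 28 genes was 9.67 and 9.68 on the empty vector arrays, 9.25 and 9.21 on set a and 9.73 and 9.69 on set b. LPIN1, a phosphatidate phosphatase, read 9.22 and 9.28, 7.45 and 7.41, and 9.41 and 9.29 in that order (-1.92 ± 0.10, 3.79-fold, adjusted p = 4.23e-07). LSS, which closes the sterol ring, read 9.09 and 8.99, 8.33 and 8.41, and 9.28 and 9.27 (-0.90 ± 0.09, adjusted p = 5.36e-05). The desaturase SCD (-0.91) and the sterol carrier STARD4 (-0.95) were lower as well, and set a was below the other 4 arrays for all 4. Leaving out set a replicate 2 or set b replicate 1 left 10 lower members.

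A match of the sterol element core (TCACNCCAC, either strand) was found in 1 of 25 genes of the list with a promoter in the table, against 1.15% of all promoters. That gene is SREBF2 itself, the sterol-sensing transcription factor, at -0.47, and the stretch around the match (chr22:41832927-41833025 on GRCh38.p14, plus strand, RefSeq) is shown with the core in capitals, 133 bases before the start. The metal response element core (TGCGCNC) was present in 2 of the 5 metallothionein and zinc genes in the table and in 20% of all promoters.
SREBF2: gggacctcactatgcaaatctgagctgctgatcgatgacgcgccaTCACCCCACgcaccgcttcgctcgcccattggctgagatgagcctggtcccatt
Of 10 metallothionein and zinc genes 4 were lower and 0 higher in set a (40%, against 17.6%). The zinc exporter SLC30A1 read 9.23 and 9.33 with the empty vector, 8.32 and 8.31 in set a and 10.09 and 10.14 in set b (-1.80 ± 0.10, adjusted p = 1e-06), with the empty vector midway and different from both. MT1M was at -0.88. MT2A, a metallothionein that binds zinc and copper, has 3 clusters that disagree, the brightest at -0.30 and the others at -0.27 (adjusted p = 0.0259) and -0.03 (adjusted p = 0.839), and where each lies in the genome was not checked. The brightest was no longer called when set a replicate 2 (-0.253), set b replicate 1 (-0.345) or set b replicate 2 (-0.261) was left out, and the list then had 2 lower members. MT1F (-0.40) was not called when any 1 of the 4 scrambled arrays was left out.

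Fewer genes were higher in set a. SPRR2A, a small proline-rich protein of the cornified envelope, gave the largest measured difference, at 5.01 and 5.21 with the empty vector, 7.05 and 7.29 in set a and 4.23 and 4.28 in set b (2.91 ± 0.13, 7.53-fold, adjusted p = 1.93e-07). Set b and the empty vector were below the floor, and SPRR2 genes are near copies whose probes may share signal. SPRR1B, of the same family, read 6.14 and 6.08, 7.40 and 7.47, and 5.96 and 6.09 in the same order (1.41 ± 0.11). The squamous list as a whole was split, with 5 of 17 higher (29.4%, against 7.29%) and 4 lower, and 3 were higher when set b replicate 2 was left out. The lower members included GPRC5A (-1.09), an epithelial receptor gene.

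SERPINB7, a protease inhibitor of the epidermis, read 5.78 and 6.09 with the empty vector, 7.90 and 8.17 in set a and 5.63 and 5.70 in set b (2.37 ± 0.15, adjusted p = 2.01e-06). CALB1, a calcium-binding protein, read 7.35 and 7.55, 9.38 and 9.25, and 6.99 and 6.93 (2.36 ± 0.10, adjusted p = 1.54e-07), with the empty vector above set b (0.49, adjusted p = 0.03). DDIT4, an mTOR inhibitor induced by stress, read 6.42 and 7.08, 8.26 and 8.09, and 6.52 and 6.42 (1.71 ± 0.17, adjusted p = 5.15e-05). Set a was highest for all 3, and the empty vector arrays of DDIT4 had an SD of 0.46 and overlapped set b. ATP6V0D2 (1.65), ENTPD3 (1.52), PRSS3P2 (1.47), STRIP2 (1.38), MOB3B (1.38), ANO1 (1.22), GPX8 (1.18) and SEMA3A (1.17) were also higher in set a, several of them with set b means below the floor.

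Oxidative phosphorylation genes, subunits of the mitochondrial respiratory chain, were in part higher in set a, by small differences. Of 37 tested, 9 were higher and 0 lower in set a (24.3%, against 7.29%) with a median of 0.21. In the empty vector 17 of the 37 were lower than in set a, where 12.8% of all genes were. SDHC, a subunit of complex II, read 10.60 and 10.64 with the empty vector, 11.35 and 11.40 in set a and 10.77 and 10.75 in set b (0.61 ± 0.10, adjusted p = 0.00146). The other SDHC cluster was at 0.60 (adjusted p = 0.0449), and the position of neither was checked. NDUFA8 of complex I was at 0.57 and UQCRC1 of complex III at 0.38. Leaving out set a replicate 1, set a replicate 2 or set b replicate 1 left 3 higher members, leaving out set b replicate 2 left 2, and centring the arrays left 3.

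Stress response genes were divided. Of 37 unfolded protein and amino acid response genes, 7 were higher (18.9%, against 7.29%) and 5 lower (13.5%, against 17.6%) in set a, with a median of -0.05. Leaving out set a replicate 2 or set b replicate 2 left 3 lower, and leaving out set b replicate 1 left 2, each with 7 higher. DDIT3, a stress-induced transcription factor, read 6.72 and 6.74 with the empty vector, 7.67 and 7.70 in set a and 6.55 and 6.72 in set b (1.05 ± 0.13, adjusted p = 0.000253). The glutathione-degrading enzyme CHAC1 was at 1.10 and the serine synthesis enzyme PSPH at 0.77, while the cystine transporter SLC7A11 was at -0.91. Heat shock genes had 5 of 20 higher (25%, against 7.29%), among them DNAJB4 at 0.63, and 1 lower (5%, against 17.6%). Their higher count was 1 when set a replicate 1 or set b replicate 1 was left out, 2 when set a replicate 2 or set b replicate 2 was, and 2 with arrays centred. HOX genes had 4 of 12 higher (33.3%, against 7.29%) and 1 lower (8.33%, against 17.6%). HOXB6 was at 0.78, HOXC10 at 0.46, HOXB2 at 0.43 and HOXB7 at 0.43. The calls of HOXB2 and HOXC10 ended when set a replicate 2 (0.416 and 0.374) or set b replicate 1 (0.379 and 0.513) was left out. That of HOXB2 also ended without set a replicate 1 (0.448). That of HOXC10 also ended without set b replicate 2 (0.402) and with arrays centred (0.396).

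Cell cycle lists lay near the background. Of 36 G1/S and DNA replication genes 2 were higher and 7 lower, and of 38 G2/M genes 2 were higher and 4 lower, against 7.29% and 17.6% of all genes. The G1/S lower count fell when any 1 of the 4 scrambled arrays was left out, as calls over all clusters did. The G2/M lower count fell when set a replicate 2, set b replicate 1 or set b replicate 2 was left out. Ribosomal protein genes had 3 of 36 higher (8.33%, against 7.29%) and 0 lower (against 17.6%). That higher count fell when any 1 of the 4 scrambled arrays was left out. Among p53 targets, 10 of 25 were lower (40%, against 17.6%) and 2 higher (8%, against 7.29%). The lower members were led by the Polo-like kinases PLK3 (-1.23) and PLK2 (-1.03), which stress signals also induce. That lower count was 5 when set b replicate 1 was left out and 6 when set a replicate 1, set a replicate 2 or set b replicate 2 was.

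In the WNT and BMP list 10 of 29 were lower and 0 higher (34.5%, against 17.6%), with the WNT inhibitor DKK1 at 8.49 and 8.85 with the empty vector, 6.79 and 6.56 in set a and 8.94 and 9.12 in set b (-2.36 ± 0.13, adjusted p = 7.07e-07). The lower count was 4 when set a replicate 2 or set b replicate 1 was left out, and 6 when set a replicate 1 or set b replicate 2 was. EDN1, the vasoactive peptide endothelin, read 8.32 and 8.47, 6.14 and 6.18, and 8.71 and 8.57 in the same order (-2.48 ± 0.11, adjusted p = 1.82e-07). SERPINA5 read 8.81 and 8.88, 6.37 and 6.32, and 8.57 and 8.71 (-2.30 ± 0.12), with the empty vector above set b but not different from it (0.20, adjusted p = 0.476). Among junction genes the claudins CLDN3 (-1.07), CLDN1 (-1.01) and CLDN4 (-0.65) were lower, with 9 of 31 lower (29.0%, against 17.6%) and 3 higher (9.68%, against 7.29%) in all, and 0 or 1 higher when 1 of the 4 scrambled arrays was left out, 6 being lower without set a replicate 2.

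A small number of genes had the empty vector with set a. KRT75, a hair follicle keratin, read 5.51 and 5.83 with the empty vector, 5.84 and 5.71 in set a and 7.69 and 7.72 in set b (-1.93 ± 0.12, adjusted p = 1.88e-06 between the sets), so the empty vector and set a overlapped below the floor and set b alone was high. The tissue plasminogen activator PLAT read 6.59 and 6.58, 6.60 and 6.47, and 7.69 and 7.78 in the same order (-1.20 ± 0.11). ALPL, an alkaline phosphatase, read 7.07 and 7.01, 6.88 and 6.83, and 8.55 and 8.51 (-1.68 ± 0.12). These 3 differed between the empty vector and set b (adjusted p from 7.87e-06 to 0.000315) and did not pass the test between the empty vector and set a (adjusted p from 0.31 to 0.773).

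Among genes higher in set a, TMEM71 read 6.56 and 6.90 with the empty vector, 7.01 and 7.20 in set a and 5.66 and 5.65 in set b (1.45 ± 0.13, adjusted p = 1.92e-05). The protease inhibitor-like A2ML1 read 8.25 and 8.24, 8.75 and 8.75, and 7.64 and 7.50, with the empty vector different from both. KLK10, a kallikrein-related peptidase, ran lower in the empty vector than in either set, at 7.51 and 7.38, 9.05 and 9.02, and 8.42 and 8.31 (-1.59 against set a, adjusted p = 2.06e-06; -0.92 against set b, adjusted p = 0.000572). So the empty vector had differences of its own beside its nearness to set b.

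Of 6 genes often used as steady controls, GAPDH (0.03, adjusted p = 0.753), ACTB (-0.12, 0.246), TBP (-0.17, 0.301) and HPRT1 (0.09, 0.455) were not called between the sets. GUSB (-0.40 ± 0.09, adjusted p = 0.00693) and PPIA (-0.55 ± 0.15, adjusted p = 0.0259) were lower in set a. PPIA read 9.28 and 9.43 with the empty vector, 9.17 and 8.69 in set a and 9.52 and 9.43 in set b, with an SD of 0.34 between its set a arrays. It was no longer called when set a replicate 2 (-0.302), set b replicate 1 (-0.497) or set b replicate 2 (-0.593) was left out. GUSB lost its call when set a replicate 2 (-0.366) or set b replicate 1 (-0.37) was left out.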

How the data were processed

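The deposited values are log2 signals that the authors made with RMA in Affymetrix Expression Console, per the submitters' processing notes; no source used here gives the versions or the build behind the clusters. No value was transformed again. Of 33297 clusters, 19460 had 1 gene symbol in the platform annotation (19429 found by Entrez identifier in RefSeq, GRCh38.p14), 1754 several and 12083 none. Of 16175 tested clusters, 236 repeated the values of another.

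A model of 8 group means over the 16 arrays was fitted with limma 3.58.1 in R 4.3.3 (8 residual and 3.69 prior degrees of freedom) and p-values, two-sided, were adjusted by Benjamini-Hochberg over all tested clusters. It was checked on simulated data. Errors after ± are its standard errors. A gene is its 1-symbol cluster with the highest mean. Cluster positions were not checked. Precision is limited by 2 arrays a group, and arrays give no read depth.

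The comparison, the 34 gene lists and the rule for naming genes (the 15 largest called in each direction, the 4 largest called of each list and of each empty vector position, a lineage panel and 6 steady genes) were chosen with earlier results of these data known. FOS, EGR1, ISG15, IFITM1, OASL, DCN, PTPRC, COL1A1, TYROBP, ACTA2 and LST1 were named after their values were seen. Promoters are the first RefSeq entry of a gene. Alternatives were another floor, no filter, centring, quantile normalization, an intensity trend, fewer arrays, 1-symbol clusters, repeated clusters counted once (chosen after seeing the data), a replicate block and leaving out each array.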

Additional observations from a re-analysis of the deposited data

How the results depend on the processing

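The 159 called named genes kept their direction in the alternatives in which they were compared, and 120 stayed past the threshold there; a floor of log2 7 left 165 of the 169 named genes, and named genes were not compared with an empty vector array left out or repeated clusters counted once. Counts of called clusters between set a and set b were 6269 in the 4 scrambled arrays alone and 1604 to 2040 leaving out 1 scrambled array. The empty vector against set a gave 2195 to 3457 leaving out 1 array, and against set b 44 to 219, 186 with arrays centred and 190 without the filter. The position share ran from 83.0% to 92.5% leaving out 1 array. Leaving out 1 scrambled array, lower counts ran from 10 to 13 for cholesterol, 6 to 9 for mesenchymal and 5 to 6 for p53 genes, and higher counts from 1 to 2 for heat shock, 2 to 3 for oxidative phosphorylation and 3 to 4 for squamous genes. Oxidative phosphorylation had 3 higher with centring, 3 without the filter and 19 in the 4 arrays alone, and heat shock 2 with centring. Over all genes, higher calls were 813 of 11145 in the main fit, 443 of 11145 with centring and 608 of 18417 without the filter. Over all clusters they were 1198 in the main fit and 2578 in the 4 arrays alone. Lists whose balance of directions turned were unfolded protein genes (7 higher, fewer than the lower ones, with an intensity trend, and 9 in the 4 arrays alone), squamous genes (3 higher without set b replicate 2), G1/S genes (2 lower with quantile normalization, and 1 to 4 leaving out a scrambled array) and clustered histones (0 lower leaving out any scrambled array). Uncalled genes that changed sign were CDKN2A (-0.013), KRT8 (-0.01) and GAPDH (-0.028) with centring, and GAPDH without set a replicate 1 (-0.014, in a range up to 0.082 leaving out 1 scrambled array). The cause was not tested. Same-numbered arrays of sets a and b deviated with r = -0.044. Over 28 pairs of groups the correlations ran from -0.251 to 0.276, with 7 above 0.1. Such correlations cannot show whether same-numbered arrays were handled together, and the main fit used no pairing. With the replicate number as a block 3836 clusters were called between the sets. With 2 arrays a group no array could be judged an outlier, and differences below log2 6 may be understated.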
